A study of Mus musculus with 2 samples.

Results

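The 39 genes described here are a fixed set of macrophage and monocyte genes, taken by gene symbol from a table of 54532 genes. Each symbol matched 1 protein-coding gene. They were read in the 2 tumours of the series, 1 per group, so no difference below has a replicate check and no p-value is given. One tumour grew from Hepa1-6 cells, a mouse hepatocellular carcinoma line, that carried a lentivirus with IRF8, GFP and puromycin resistance. The other grew from Hepa1-6 cells with the matching GFP and puromycin vector. Both kinds of cell were injected into C57BL/6 mice, 1 on either side of an animal, and RNA came from the tumour as a whole. The mouse host supplies its own leukocytes, and cancer cells and host cells are of the same species, so a read cannot be assigned to either. The age and sex of the mice are not given in the labels, and neither is the number of animals behind a library. The libraries are headed IRF8_2R and Vec_2L, and whether both tumours grew in the same animal is not given in the labels.

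Macrophages in a tumour arise mainly from blood monocytes that leave the circulation and mature locally. Their survival depends on the receptor Csf1r and its ligands, and their identity on the transcription factor PU.1, encoded by Spi1. They take up antibody-coated particles through Fc receptors, lipoproteins and debris through scavenger receptors, and dying cells through receptors such as Mertk and Axl. Many of these receptors signal through the small adaptors Fcer1g and Tyrobp, and inhibitory receptors such as Sirpa oppose them. Several of the 39 genes are also used outside the lineage. Axl and Csf1 are made by fibroblasts and cancer cells, Cd36 by adipocytes, muscle and endothelium, Stab1 by endothelium, and Hmox1 and Nr1h3 by hepatocytes.

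Total counts were 17316607 in the library labelled IRF8-overexpression and 20223649 in the library labelled vector. Irf8, the gene named in the labels, had 2578 counts in the library labelled IRF8-overexpression and 4178 in the one labelled vector, a log2 ratio of -0.51 (95% counting interval -0.58 to -0.44). Counts at the mouse Irf8 gene were therefore lower in the library labelled as overexpressing it, and the libraries are called IRF8-labelled and vector-labelled below. These counts come from the whole tumour, host cells included. Whether reads of the lentiviral IRF8 are among them was not tested. Every direction given rests on those labels. Levels are given in CPM, the counts of a gene in every 1000000 counts of its library, after scaling by the trimmed mean of M values (TMM). A ratio is always IRF8-labelled over vector-labelled. Its interval covers counting error only and holds no spread between tumours, since each group has 1 library. PCR copies were not marked, so even the counting error may be larger than the interval shows. The call higher or lower needed a difference of 1.5-fold or more in scaled counts, and genes count as measured where the 2 libraries average 1 CPM or more.

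Most members differed by less than 1.5-fold between the tumours, as most measured genes did, and the few past that limit were lower in the IRF8-labelled one. Of the 38 measured members, 4 were at least 1.5-fold lower, none was at least 1.5-fold higher and 34 (89.5%) lay within 1.5-fold, against 85.5% of all measured genes. The background over all 14775 measured genes was 6.36% past that limit on the lower side and 8.18% on the higher side. At 2-fold, 2 members were lower (Lyz1 and Hmox1) and none was higher, against 2.87% and 2.92% of all measured genes. The members' share of 10.5% lower rests on 4 genes, namely Lyz1, Hmox1, F13a1 and Nr1h3. The 39th gene, Marco, was just short of the expression limit at a mean of 0.991 CPM and was lower as well. All 38 measured members reached 1 CPM in each library separately. Among the 5216 genes whose mean level lay between the lower and upper quartiles of the members, 95.5% lay within 1.5-fold, 2.53% passed that limit downward and 1.94% upward.

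The members leaned slightly to the lower side. Their median log2 ratio was -0.11, against -0.0012 over all measured genes, and 29 of 38 ratios (76.3%) were below 0, against 50.3% of all measured genes. Counting intervals lay below 0 for 17 members (44.7%) and above 0 for 6 (15.8%), against backgrounds of 25.8% and 23.5% of all measured genes. Among the 5216 genes with a mean level between the members' quartiles, these shares were 31.0% and 24.3%. Of the ratios of those genes 53.7% were below 0, and their median was -0.02. With counts scaled to 7 pan-leukocyte genes in place of TMM, the members split into 14 below and 10 above. Their median was then -0.03 where that of all measured genes was 0.08. Together the 38 members held 61504 counts in the IRF8-labelled library and 74743 in the vector-labelled library, 3503 and 3747 CPM. In RNA from whole tumours, fewer cells of a type and less RNA per cell cannot be told apart.

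**Figure D1:**
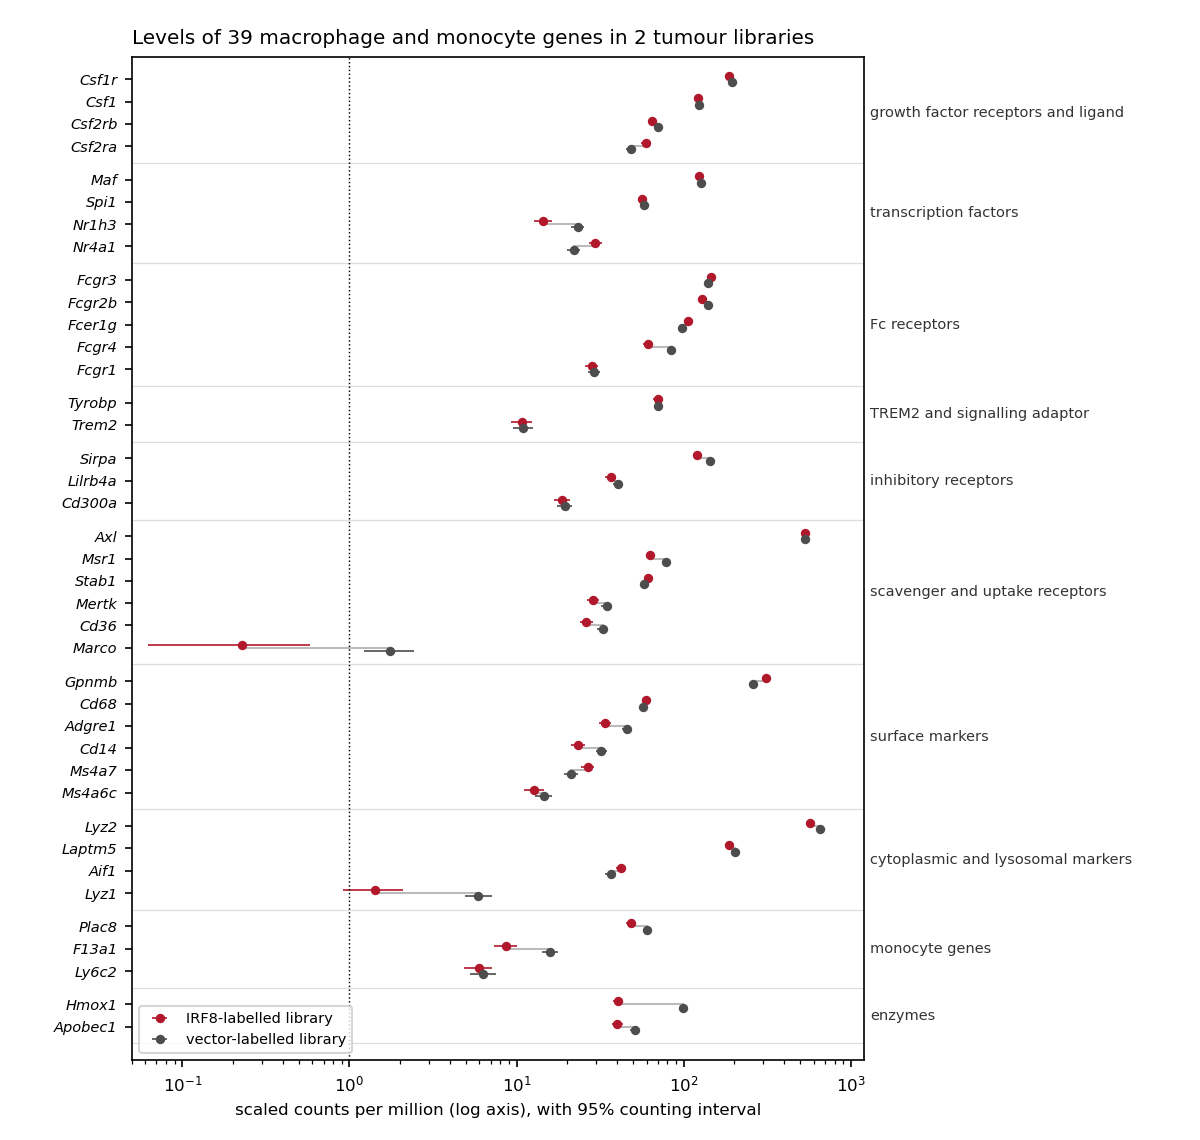
CPM (log axis) of the 39 genes, grouped by role. Red points are the IRF8-labelled library, grey points the vector-labelled library, and bars are 95% exact Poisson intervals; most pairs nearly coincide, and the wide gaps belong to Marco, Lyz1, Hmox1, F13a1 and Nr1h3.

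The Csf1 receptor and its ligand gave ratios close to 1. Csf1r, the receptor that macrophages need to survive, had 3291 counts (187.4 CPM) in the IRF8-labelled library and 3865 (193.8 CPM) in the vector-labelled one. Its log2 ratio was -0.05 (-0.12 to 0.02). Its ligand gene Csf1 had 2145 and 2467 counts, 122.2 CPM in the IRF8-labelled and 123.7 CPM in the vector-labelled library (log2 ratio -0.02, -0.10 to 0.07). Both intervals held 0. Per 100 counts of Csf1 there were 153 of Csf1r in the IRF8-labelled library and 157 in the vector-labelled library.

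The receptor for granulocyte-macrophage colony-stimulating factor did not share 1 direction across its chains. Csf2ra, the ligand-binding alpha chain, was 1.23-fold higher (1.13 to 1.35), with 1043 counts in the IRF8-labelled and 962 in the vector-labelled library. Csf2rb, the common signalling chain, had 1132 and 1409 counts and a log2 ratio of -0.13 (-0.25 to -0.02). That interval held 0 with total counts alone or with pan-leukocyte scaling. Csf2rb also shares 12.3% of its 50-base windows with another gene, mostly its copy Csf2rb2, so the split of reads between the copies is uncertain.

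The 4 transcription factor genes separated into a stable pair and a divergent pair. Spi1, which encodes the lineage factor PU.1, had 992 counts (56.5 CPM) in the IRF8-labelled library and 1157 (58.0 CPM) in the vector-labelled library, a log2 ratio of -0.04 (-0.16 to 0.09). Maf, a factor of mature macrophages, was at 123.1 CPM in the IRF8-labelled and 127.5 CPM in the vector-labelled library (-0.05, -0.13 to 0.03). Nr4a1, an orphan nuclear receptor needed for patrolling monocytes and induced early by many stimuli, had 520 counts in the IRF8-labelled and 438 in the vector-labelled library. Its log2 ratio of 0.43 (0.25 to 0.62) was the highest of the 39. Nr1h3, which encodes the oxysterol receptor LXR alpha, went the other way, with 254 counts (14.5 CPM) in the IRF8-labelled and 464 (23.3 CPM) in the vector-labelled library. It was 1.61-fold lower (1.38 to 1.88). Nr1h3 lies on chromosome 2 at 91184061 to 91202834 on the minus strand (mm10), and its start coordinate is 101671 bases from that of Spi1. These neighbours differed, with 25.6 Nr1h3 counts per 100 of Spi1 in the IRF8-labelled library and 40.1 in the vector-labelled library.

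The Fc receptor genes were of like level between the tumours except Fcgr4. All 3 activating Fc gamma receptors that are members have the letters GAGGAA, the core that PU.1 prefers, close before a RefSeq start, and they are shown because they share that feature and not their ratios. They were chosen after the letters had been searched. The stretches below are the 120 bases before the start (positions -120 to -1, RefSeq, GRCm38.p6, read on the strand of the gene), with TTCCTC, which is GAGGAA on the opposite strand, in capitals.
Fcgr1: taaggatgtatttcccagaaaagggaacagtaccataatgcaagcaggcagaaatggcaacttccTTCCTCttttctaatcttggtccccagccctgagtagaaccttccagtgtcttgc
Fcgr3: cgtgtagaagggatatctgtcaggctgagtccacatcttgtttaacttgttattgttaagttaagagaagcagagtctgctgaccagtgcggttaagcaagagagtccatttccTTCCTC
Fcgr4: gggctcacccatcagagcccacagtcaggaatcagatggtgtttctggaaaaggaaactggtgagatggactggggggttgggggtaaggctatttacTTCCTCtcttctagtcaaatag

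These stretches lie at chr3:96293970-96294089 (minus strand) for Fcgr1, chr1:171059404-171059523 (minus strand) for Fcgr3 and chr1:171018806-171018925 (plus strand) for Fcgr4. The Fcgr3 stretch lies inside the span of its gene, 171051174 to 171064935, so the RefSeq start used there is an internal one. The capitals begin 55, 6 and 22 bases before the start in Fcgr1, Fcgr3 and Fcgr4. Promoter windows of 300 bases (250 before to 50 after a start) were matched for 28 of the 39 members, and 17 of these 28 held GAGGAA on either strand in at least 1 window. They were Aif1, Axl, Cd300a, Cd68, Csf2ra, F13a1, Fcgr1, Fcgr3, Fcgr4, Laptm5, Ly6c2, Marco, Ms4a7, Nr1h3, Plac8, Stab1 and Trem2. Of all 27025 genes in the RefSeq table, 31.3% did. The longer form GAGGAAGT was in 3 of the 28 (F13a1, Fcgr4 and Ly6c2) and in 3.69% of all genes. A match of letters is a description and does not show that PU.1 binds there. No window was matched for Adgre1, Cd14, Csf1r, Csf2rb, Hmox1, Lilrb4a, Maf, Msr1, Sirpa, Spi1 and Tyrobp.

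Among the activating receptors, Fcgr3 had 2545 counts (145.0 CPM) in the IRF8-labelled and 2802 (140.5 CPM) in the vector-labelled library, a log2 ratio of 0.05 (-0.03 to 0.12). Fcgr1, the high-affinity receptor known as CD64, had 495 and 581 counts and a log2 ratio of -0.05 (-0.22 to 0.13). Fcgr4, which binds IgG2a and IgG2b and in mouse is found on monocytes, macrophages and neutrophils, had 1069 counts (60.9 CPM) in the IRF8-labelled and 1668 (83.6 CPM) in the vector-labelled library. It was 1.37-fold lower (1.27 to 1.48), and its interval did not meet those of Fcgr1 or Fcgr3. Fcgr4 starts 32254 bases from Fcgr3 in the receptor cluster of chromosome 1, and per 100 counts of Fcgr3 there were 42.0 of Fcgr4 in the IRF8-labelled and 59.5 in the vector-labelled library. The 13 neutrophil marker genes listed summed to 37.5 CPM in the IRF8-labelled and 45.2 CPM in the vector-labelled library. Mpo was at 0 in both, and Elane and Ngp were at 0 in the IRF8-labelled one. Of the 7 measured, 3 were at least 1.5-fold lower and 1 was at least 1.5-fold higher, against 6.36% and 8.18% of all measured genes. The median log2 ratio of the 7 was -0.50. Clec4e was at -2.20 (-3.02 to -1.46), Clec4d at -1.27 (-1.82 to -0.74) and Ly6g at 0.72 (0.09 to 1.35). The part of the neutrophil markers in the Fcgr4 difference was not tested.

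The inhibitory receptor and the shared chain stood on opposite sides of 0 by small margins. Fcgr2b, the inhibitory Fc gamma receptor, had 2261 counts (128.8 CPM) in the IRF8-labelled and 2799 (140.3 CPM) in the vector-labelled library, a log2 ratio of -0.12 (-0.20 to -0.04), and its interval held 0 with pan-leukocyte scaling. Fcer1g, the gamma chain through which the activating receptors signal, had 1870 counts (106.5 CPM) in the IRF8-labelled and 1942 (97.4 CPM) in the vector-labelled library, a log2 ratio of 0.13 (0.04 to 0.22). Per 100 counts of Fcer1g there were 121 of Fcgr2b in the IRF8-labelled library and 144 in the vector-labelled library. Fcgr2b and Fcgr3 share 166 windows of 50 bases, 9.58% of those of Fcgr3, so a part of their reads may be interchangeable.

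Trem2, a lipid-sensing receptor of tissue and tumour macrophages, and its adaptor Tyrobp (DAP12) did not differ beyond counting error. Tyrobp had 1226 counts (69.8 CPM) in the IRF8-labelled and 1409 (70.6 CPM) in the vector-labelled library, a log2 ratio of -0.02 (-0.13 to 0.09). Trem2 had 189 counts in the IRF8-labelled and 219 in the vector-labelled library (-0.03, -0.32 to 0.26). There were 15.4 Trem2 counts per 100 of Tyrobp in the IRF8-labelled library and 15.5 in the vector-labelled one.

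The 3 inhibitory receptors all had ratios below 0. Sirpa, which receives the CD47 signal that restrains phagocytosis, had 2104 counts (119.8 CPM) in the IRF8-labelled and 2849 (142.8 CPM) in the vector-labelled library. It was 1.19-fold lower (1.13 to 1.26). Lilrb4a had 641 and 803 counts (-0.14, -0.29 to 0.01) and Cd300a had 328 and 388 (-0.06, -0.27 to 0.16), and both intervals held 0. Lilrb4a shares 47.2% of its windows with other genes, and its count is uncertain for that reason.

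Among uptake receptors, Axl was level between the tumours and the classical scavenger receptor was lower. Axl, a receptor for the bridging protein Gas6, had 9349 counts (532.5 CPM) in the IRF8-labelled and 10682 (535.5 CPM) in the vector-labelled library, a log2 ratio of -0.01 (-0.05 to 0.03). Mertk, its relative on macrophages that engulf dying cells, was 1.21-fold lower (1.08 to 1.36), with 504 counts in the IRF8-labelled and 693 in the vector-labelled library. Msr1, which encodes scavenger receptor A, had 1103 counts (62.8 CPM) in the IRF8-labelled and 1560 (78.2 CPM) in the vector-labelled library and was 1.24-fold lower (1.15 to 1.35). Marco, a second receptor of that class that is found on few tissue macrophages, was sparse, with 4 counts in the IRF8-labelled and 35 in the vector-labelled library. Its ratio of 0.130 has a wide interval, 0.0335 to 0.363, because so few counts lie behind it. Stab1, a receptor of macrophages and sinusoidal endothelium, had 1078 and 1161 counts (0.08, -0.04 to 0.20).

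Cd36 takes up fatty acids and oxidised lipoproteins and is abundant in fat and muscle as well as in macrophages. It had 460 counts (26.2 CPM) in the IRF8-labelled and 656 (32.9 CPM) in the vector-labelled library, a level 1.26-fold lower (1.11 to 1.42). The marker genes of fat and muscle stood the other way. The 8 adipocyte markers summed to 125.6 CPM in the IRF8-labelled and 33.6 CPM in the vector-labelled library, with 6 of 6 measured at least 1.5-fold higher and Lep at 0 in the vector-labelled library. The 9 skeletal muscle markers summed to 306 CPM and 7.27 CPM in the same order. Of these, 9 of 9 were at least 1.5-fold higher, against 8.18% of all measured genes. Their part in the Cd36 level was not tested.

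**Figure D2:**
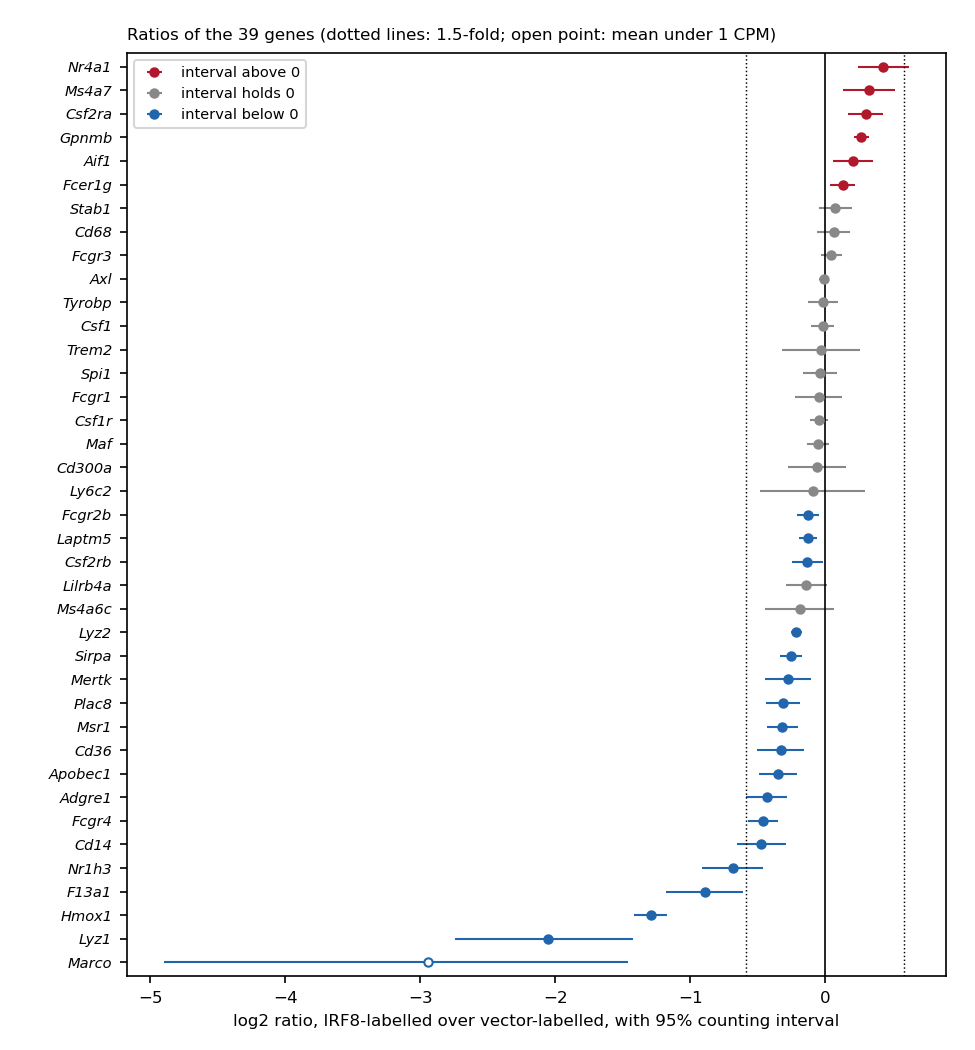
Log2 ratio of each of the 39 genes, IRF8-labelled over vector-labelled, with 95% counting intervals, ordered from Nr4a1 (0.43) at the top to Marco (-2.95) at the bottom. Red, grey and blue mark intervals above 0, holding 0 and below 0; dotted lines mark 1.5-fold, past which only Nr1h3, F13a1, Hmox1, Lyz1 and Marco lie, all lower.

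The usual surface markers of macrophages did not share 1 direction. Adgre1, which encodes F4/80, had 594 counts (33.8 CPM) in the IRF8-labelled and 910 (45.6 CPM) in the vector-labelled library with a log2 ratio of -0.43 (-0.58 to -0.28). Cd14, the co-receptor for lipopolysaccharide, was 1.39-fold lower (1.22 to 1.57), with 408 counts in the IRF8-labelled and 643 in the vector-labelled library. Cd68, a lysosomal membrane protein and the most used marker of the lineage in tissue sections, had 1050 counts (59.8 CPM) in the IRF8-labelled and 1142 (57.3 CPM) in the vector-labelled library, a log2 ratio of 0.06 (-0.06 to 0.19). The Cd68 interval held 0, and it did not overlap that of Adgre1. Gpnmb, a glycoprotein of lipid-laden and tumour macrophages that melanocytes also make, had 5489 counts (312.6 CPM) in the IRF8-labelled and 5176 (259.5 CPM) in the vector-labelled library with a log2 ratio of 0.27 (0.21 to 0.32).

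The tetraspan genes Ms4a7 and Ms4a6c, which lie 148327 bases apart by start on chromosome 19, had ratios of opposite sign. Ms4a7 had 467 counts (26.6 CPM) in the IRF8-labelled and 423 (21.2 CPM) in the vector-labelled library, a log2 ratio of 0.33 (0.13 to 0.52), while Ms4a6c had 224 and 290 counts (-0.19, -0.45 to 0.07). Ms4a6c shares 51.4% of its windows with other transcripts, nearly all of them under the name BE692007, so its count is uncertain. Among intracellular markers, Aif1, which encodes the actin-bundling protein IBA1, had 742 counts (42.3 CPM) in the IRF8-labelled and 730 (36.6 CPM) in the vector-labelled library and was 1.15-fold higher (1.04 to 1.28). Laptm5, a lysosomal membrane protein of all leukocytes, had 3261 and 4038 counts (-0.12, -0.19 to -0.06), and its interval held 0 with pan-leukocyte scaling.

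The lysozyme pair gave the most unequal ratios of the 11 pairs of members compared. Lyz2 is the lysozyme of macrophages and neutrophils, and Lyz1 is that of Paneth cells of the mouse gut. They lie side by side on the minus strand of chromosome 10, Lyz2 at 117277331 to 117282321 and Lyz1 at 117287797 to 117292868 (mm10). Lyz2 had 9963 counts (567.5 CPM) in the IRF8-labelled and 13114 (657.5 CPM) in the vector-labelled library and was 1.16-fold lower (1.13 to 1.19). Lyz1 had 25 counts (1.42 CPM) in the IRF8-labelled and 118 (5.92 CPM) in the vector-labelled library and was 4.15-fold lower (2.68 to 6.68). Per 100 counts of Lyz2 there were 0.251 of Lyz1 in the IRF8-labelled library and 0.900 in the vector-labelled library.

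The coding sequences of this pair are printed because their likeness limits how reads can be divided between them. Over 447 coding bases they are identical at 95.1% and differ at 22 positions. The first 150 bases hold 14 of these differences, shown in capitals.
Lyz1: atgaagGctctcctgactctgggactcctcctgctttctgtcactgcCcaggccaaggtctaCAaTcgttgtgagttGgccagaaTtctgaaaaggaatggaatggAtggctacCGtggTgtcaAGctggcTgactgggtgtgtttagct
Lyz2: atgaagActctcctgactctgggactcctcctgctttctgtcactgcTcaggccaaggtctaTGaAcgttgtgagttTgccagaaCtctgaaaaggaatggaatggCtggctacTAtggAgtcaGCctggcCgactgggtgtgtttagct

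Over whole transcripts, 195 windows of 50 bases occur in both genes, 16.1% of those of Lyz1. How the submitters' counting treated a read that matches both genes was not stated in the sources at hand. The Lyz1 counts are a small fraction of the Lyz2 counts, and how many of them are reads of Lyz2 was not tested.

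The monocyte genes were lower or level in the IRF8-labelled library. F13a1, the A subunit of coagulation factor XIII and a gene of monocytes and some tissue macrophages (chromosome 13, 36867178 to 37050244, minus strand), had 151 counts (8.60 CPM) in the IRF8-labelled and 318 (15.9 CPM) in the vector-labelled library. It was 1.85-fold lower (1.52 to 2.27). Plac8, which is high in circulating monocytes and also made by other leukocytes, was 1.24-fold lower (1.14 to 1.36), at 852 counts in the IRF8-labelled and 1202 in the vector-labelled library. Ly6c2, the marker of inflammatory monocytes, had 104 and 126 counts, and its log2 ratio of -0.09 had an interval from -0.48 to 0.29 that does not settle a direction. Of 10 other monocyte markers, 2 were lower and 1 was higher at 1.5-fold, against 6.36% and 8.18% of all measured genes. The median log2 ratio of the 10 was -0.20. Chil3 was at 49 counts in the IRF8-labelled and 256 in the vector-labelled library (-2.20, -2.67 to -1.76), and Ace at 129 and 364 (-1.31, -1.61 to -1.02). Cx3cr1, the fractalkine receptor of patrolling monocytes and tissue macrophages, had 498 counts in the IRF8-labelled and 327 in the vector-labelled library (0.79, 0.59 to 0.997).

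Hmox1 was the member with the widest gap among the 37 with over 100 counts in each library. It encodes heme oxygenase 1, which breaks down heme and releases iron, and lies on chromosome 8 at 75093621 to 75100589 on the plus strand (mm10). It had 710 counts, 40.4 CPM (95% Poisson interval 37.5 to 43.5), in the IRF8-labelled library and 1977 counts, 99.1 CPM (94.8 to 103.6), in the vector-labelled library. It was 2.45-fold lower (2.25 to 2.67), and 1.92% of all measured genes had a lower ratio. Apobec1, the cytidine deaminase that edits the Apob transcript, was the other enzyme gene of the set. It had 704 counts (40.1 CPM) in the IRF8-labelled and 1018 (51.0 CPM) in the vector-labelled library and was 1.27-fold lower (1.16 to 1.40).

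Of 9 measured genes of heme and iron handling besides Hmox1, 7 had counting intervals below 0 and none had one above 0, where 25.8% and 23.5% of all measured genes did. Of the 9, 3 were at least 1.5-fold lower, against 6.36% of all measured genes, and the median log2 ratio was -0.28. Slc48a1, which carries heme out of the phagolysosome, had 1060 counts (60.4 CPM) in the IRF8-labelled and 2733 (137 CPM) in the vector-labelled library, a log2 ratio of -1.18 (-1.29 to -1.08). Slc40a1, the iron exporter ferroportin, was at 45.7 CPM in the IRF8-labelled and 73.7 CPM in the vector-labelled library (-0.69, -0.81 to -0.56). Fth1, the ferritin heavy chain, was at 1141 CPM in the IRF8-labelled and 1733 CPM in the vector-labelled library (-0.60, -0.63 to -0.58). Cd163, the receptor for hemoglobin bound to haptoglobin, had 6 and 23 counts and was under the expression limit. Slc11a1, chosen after its values were seen, was at 30.2 CPM in the IRF8-labelled and 43.6 CPM in the vector-labelled library (-0.53, -0.69 to -0.37). Cd163 is mainly a gene of macrophages, while Hmox1, Slc48a1, Slc40a1 and Fth1 are used by many cell types, hepatocytes included. The 10 hepatocyte markers summed to 2097 CPM in the IRF8-labelled and 4552 CPM in the vector-labelled library, with 8 of 10 at least 1.5-fold lower and none at 0, and their part in the Hmox1, Nr1h3 and iron gene differences was not tested.

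Around the other members, few genes of the receptor, signalling, efferocytosis and C1q lists passed 1.5-fold. Of all measured genes, 85.5% lay within 1.5-fold, 23.5% had counting intervals above 0 and 25.8% had them below. In the CSF1 and CSF2 receptor list, 4 of 7 genes that are not members had intervals above 0 and none below. Csf2, which encodes the ligand of the Csf2ra and Csf2rb receptor, was the only one past 1.5-fold, at 59 counts in the IRF8-labelled and 42 in the vector-labelled library (0.67, 0.08 to 1.28). Of 15 other genes of ITAM and ITIM signalling, the kinase and phosphatase cascade that Fc receptors and Tyrobp use, none passed 1.5-fold, 3 had intervals below 0 and 1 above. Btk (-0.47, -0.81 to -0.15) and Pirb (-0.36, -0.54 to -0.17) had the largest ratios of these in size. In efferocytosis, the clearance of dying cells, none of 9 other genes passed 1.5-fold, and Pros1, a bridging ligand of Mertk, was at 0.58 (0.50 to 0.66). All 3 C1q chains, which tumour macrophages secrete in quantity, were within 1.5-fold. C1qc was at 0.17 (0.11 to 0.22), C1qa at 0.10 (0.05 to 0.15) and C1qb at 0.04 (-0.01 to 0.10).

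Transcription factors and lipid genes showed more spread. Of 10 other myeloid transcription factor genes, 7 had intervals below 0 and 1 above, against 25.8% and 23.5% of all measured genes. The 7 include Irf8 itself, the gene named in the labels (-0.51). The median log2 ratio of the 10 was -0.19. Runx1 was at 0.86 (0.74 to 0.98), Tfec at -0.85 (-1.19 to -0.52) and Cebpa at -0.56 (-0.68 to -0.45). Among 12 genes of LXR targets and lipid handling, 2 were higher and 3 lower at 1.5-fold, against 8.18% and 6.36% of all measured genes. The median log2 ratio of the 12 was -0.02. Of the 12, 4 had counting intervals above 0 and 5 below, against 23.5% and 25.8% of all measured genes. Apoc1 was at -1.78 (-2.16 to -1.42), Fabp5 at -1.11 (-1.20 to -1.03) and Fabp4 at 1.06 (0.91 to 1.20). Fabp4 is also 1 of the 8 adipocyte markers. Lpl had 2692 counts in the IRF8-labelled and 6107 in the vector-labelled library. The 10 hepatocyte markers summed to 2097 and 4552 CPM in the same order, and their part in the Cebpa and Apoc1 differences was not tested. The cholesterol exporter genes Abca1 and Abcg1, direct targets of LXR and chosen after their values were seen, were at 0.03 (-0.04 to 0.11) and 0.21 (0.04 to 0.39). Apoe and Mylip, also chosen after their values were seen, were at 0.60 (0.59 to 0.61) and 0.49 (0.26 to 0.71). Apoe was at least 1.5-fold higher, at 10561 CPM in the IRF8-labelled and 6950 CPM in the vector-labelled library. Among 19 lysosomal genes none passed 1.5-fold, from Ctss at -0.37 (-0.41 to -0.33) to Ctsl at 0.48 (0.45 to 0.52).

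**Figure D3:**
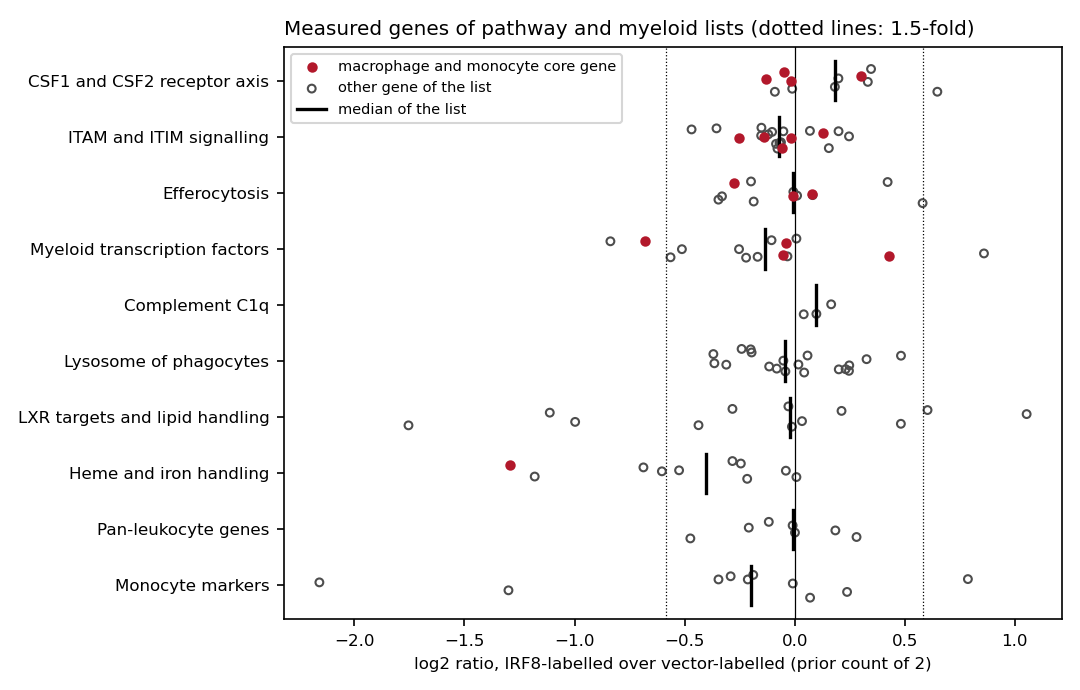
Log2 ratios of the measured genes of 10 pathway and myeloid lists, IRF8-labelled over vector-labelled; filled red points are members of the macrophage and monocyte set, open points other genes of a list, and black bars the median of each list. Of the 10 lists plotted, which leave out those of other cell types, heme and iron handling has the lowest median (-0.40), and dotted lines mark 1.5-fold.

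Levels of different genes can be compared only per length, and by CPM per kilobase the first 5 members were in the same order in both libraries. Lyz2 stood first, at 431 CPM per kilobase in the IRF8-labelled and 499.6 CPM per kilobase in the vector-labelled library. Fcer1g followed at 121.9 and 111.4, Axl at 105.8 and 106.4 and Tyrobp at 104.7 and 105.9 CPM per kilobase in the IRF8-labelled and vector-labelled library. Fcgr3 was the fifth, at 83.5 and 80.9 CPM per kilobase. Axl and Tyrobp could not be ordered beyond their counting error in either library, and in the vector-labelled library Fcer1g could not be ordered against them. Among other surface receptors, Fcgr4 was at 48.5 and 66.6 and Csf1r at 38.4 and 39.7 CPM per kilobase. Adgre1 was at 10.4 and 14.1 and Trem2 at 2.18 and 2.22 CPM per kilobase. Hmox1 held rank 16 of the 39 in the IRF8-labelled library and rank 7 in the vector-labelled library, and Nr1h3 ranks 33 and 26.

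Markers outside the set gave a like picture for leukocytes as a whole and a different one for some cell types. The 7 pan-leukocyte genes summed to 888 CPM in the IRF8-labelled and 940.1 CPM in the vector-labelled library, none passed 1.5-fold, and their median log2 ratio was -0.01. They did not move as a block, with Itgb2 at -0.47 (-0.56 to -0.39), Ptprc at -0.21 (-0.30 to -0.12) and Coro1a at 0.28 (0.19 to 0.37). Markers of liver-resident macrophages were nearly missing, with Clec4f and Vsig4 at 0 counts in both libraries and the 7 genes together at 3.82 CPM in the IRF8-labelled and 4.86 CPM in the vector-labelled library. Other leukocyte lists differed at 1.5-fold. B and plasma cell markers summed to 154.1 CPM in the IRF8-labelled and 40.9 CPM in the vector-labelled library (5 of 5 measured genes higher, none at 0). Mast cell markers summed to 19.9 and 46.1 CPM in the same order (4 of 5 lower, none at 0). Of the 7 measured neutrophil markers, 3 were lower and 1 was higher, with a median log2 ratio of -0.50. Markers of dendritic cells, close relatives of macrophages, summed to 241 CPM in the IRF8-labelled and 204 CPM in the vector-labelled library, with 1 of 8 measured at least 1.5-fold higher and none at 0. T cell markers summed to 119 CPM in the IRF8-labelled and 145 CPM in the vector-labelled library (3 of 11 lower), endothelial markers to 172 and 161 CPM, and fibroblast markers to 4464 and 3999 CPM, none of them at 0. The part of these cell types in the members' ratios was not tested.

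**Figure D4:**
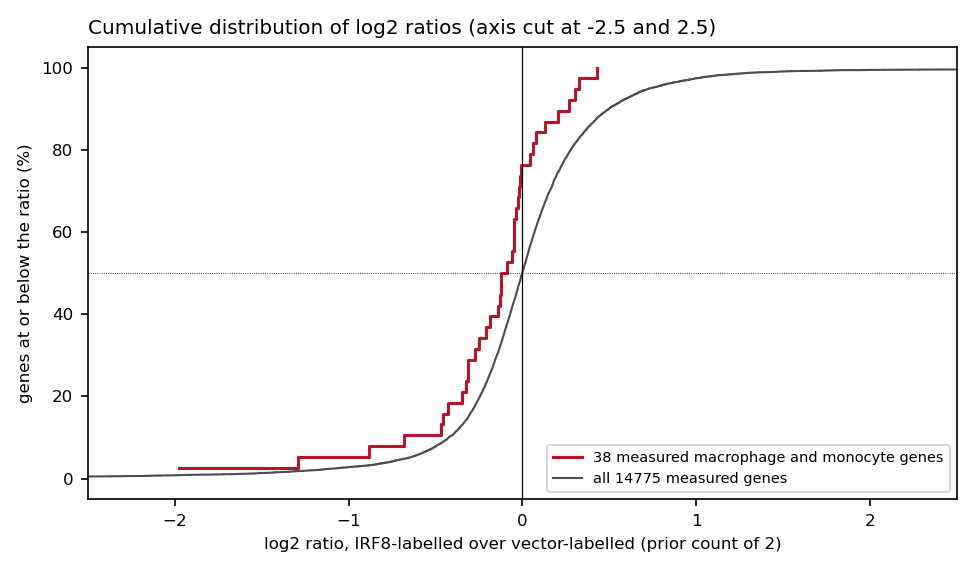
Share of genes (%) at or below each log2 ratio, IRF8-labelled over vector-labelled, for the 38 measured members (red) and all 14775 measured genes (grey). The red line lies left of the grey one at its middle (-0.11 against -0.0012) and ends at 0.43, with its lower tail made of Lyz1, Hmox1, F13a1 and Nr1h3.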

How the data were processed

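RNA-seq gene counts of 2 tumour libraries, 1 per group, were used as deposited: raw counts per gene, whose columns were matched to the samples by name. Alignment with HISAT2 2.0.5 to mm10 and counting with featureCounts 1.5.0-p3 are named in the submitters' processing notes; how reads matching several places were treated was not stated in the sources at hand. The kit named in the labels does not mark strand. Gene length came from the deposited table.

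TMM factors came from edgeR 4.0.16 in R 4.3.3 and alternative size factors from DESeq2 1.42.0. Folds and log2 ratios of single genes use scaled counts; medians of lists use a prior count of 2. The interval of a ratio was derived from the 95% Clopper-Pearson interval of the IRF8-labelled share of both counts together. Where a gene has 0 counts, its level could reach 0.171 CPM (IRF8-labelled) or 0.150 CPM (vector-labelled), which is 3 counts. The steps were tested on simulated data. Windows of 50 bases were compared over GENCODE M21 transcripts on both strands; 7 members share over 10% of theirs with another gene, namely Ms4a6c, Lilrb4a, Lyz1, Lyz2, Ly6c2, Csf1r and Csf2rb, and 24 share none. The members and lists were chosen with earlier results of these data known. All members may be named; from each other list at most 4 measured genes with the largest ratios in size were named, and others are marked, apart from the C1q chains, Cd163, markers at 0 and genes quoted as partners of a member.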

Additional observations from a re-analysis of the deposited data

How the results depend on the processing

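No paired analysis was possible because each group has 1 library. For the same reason no library could be left out. Of 12 alternatives, 8 (scaling, filter, depth, biotype and gene exclusion) give ratios of single members. No member called at 1.5-fold changed direction under these, with Lyz1 left out by 2 of them (the filter at 5 CPM and the window exclusion). The filter, biotype and exclusion settings leave a ratio unchanged, and a change of scaling shifts all ratios by the same small amount. The directions of the called members could therefore hardly have changed, and their stability is no separate support. With pan-leukocyte scaling, 10 members had intervals above 0 in place of 6. Csf2rb, Fcgr2b and Laptm5 then had intervals that held 0. With total counts alone only Csf2rb did. At a fold of at least 2, 2 members were lower (Lyz1 and Hmox1), and at the looser limit of 25% above 1, 9 were lower and 2 higher. The median log2 ratio ran from -0.20 (the mean in its place) to -0.03 (pan-leukocyte scaling). Without the 7 members that share over 10% of their windows with other genes, an exclusion chosen after seeing the data, it was -0.05 and 3 members were lower. Signs of 9 members with intervals holding 0 (Csf1, Csf1r, Spi1, Maf, Fcgr1, Trem2, Tyrobp, Cd300a and Axl) turned with pan-leukocyte scaling, which moved the median of all measured genes to 0.08. Low counts limit Marco, Lyz1, Ly6c2 and Trem2, whose intervals are the widest.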
